A study of Mus musculus with 72 samples.

Results

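The genes described here are the mouse zinc finger genes with symbols from Zfp900 to Zfp999. They were picked out by symbol alone, and 52 of the 24237 genes in the deposited count table carried such a symbol and had at least 1 count. The set was put forward because its genes were lower in female ventricle after the high dose of TCDD (the dioxin 2,3,7,8-tetrachlorodibenzo-p-dioxin), so the values of that 1 comparison are given as a description and no statement rests on them. The question asked of the other comparisons was how the same genes read in every other group and chamber, and how far their values went with the GC content and length of their transcripts.

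Messenger RNA was sequenced from hearts of C57BL/6J mice of about 10 months of age (9 months in the sample labels) in 4 groups. Naïve Ahr+/+ mice were born to dams given corn oil. Low-dose and high-dose mice were Ahr+/+ offspring of dams given 0.1 or 1 µg/kg TCDD by gavage on 3 days of gestation (13.5, 15.5 and 18.5 in the sample labels, while the study's methods give earlier days), so the exposure was to the mother and the adult was not dosed. Ahr-/- mice, called Ahr-null here, carried a germline deletion of the aryl hydrocarbon receptor and came from unexposed Ahr-/- dams, so they differed from naïve mice in the genotype of the mother too. The hearts were dissected into right atrium, left atrium and ventricles, whole tissue with all its cell types, and 3 libraries were made for each group, sex and chamber, which gives 72. Per sex and group, 3 hearts served all chambers, but the labels do not say which chambers came from 1 heart, so p-values over several chambers treat them as independent. In such bulk tissue, fewer cells of a type and less RNA per cell cannot be told apart.

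Genes of this kind encode proteins with runs of C2H2 zinc fingers, short folds in which a pair of cysteines and a pair of histidines hold a zinc ion and which bind DNA in series. Many mouse Zfp genes also encode a KRAB domain, which recruits the scaffold protein TRIM28 and through it the histone methyltransferase SETDB1 and other silencing proteins, and many of these factors bind and silence transposable elements. The genes arose by repeated duplication, lie in clusters and resemble each other closely. The aryl hydrocarbon receptor is a ligand-activated transcription factor to which TCDD binds with high affinity. The targets of most of the 52 genes are not described here.

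The fingers repeat along the coding sequence, and 1 finger from each of 3 members is shown as an example of their base composition. The comparisons below use the GC content of whole transcripts, and the part of it that comes from the fingers was not measured. Each is the first finger of the canonical spacing in the coding sequence, 63 bases or 21 codons, read from GENCODE M21 transcripts on GRCm38 and printed 5′ to 3′ on the coding strand, with the codons of the pairs of cysteines and histidines in capitals. Zfp960 is the member with the largest fall in the comparison that brought the set forward, Zfp931 has the lowest GC content of the 52 in its longest transcript (the finger shown is from another, with a longer coding sequence), and Zfp956 the highest.
Zfp960: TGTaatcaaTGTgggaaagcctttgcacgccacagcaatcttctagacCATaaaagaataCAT
Zfp931: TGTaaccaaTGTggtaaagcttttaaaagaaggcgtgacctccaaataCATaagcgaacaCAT
Zfp956: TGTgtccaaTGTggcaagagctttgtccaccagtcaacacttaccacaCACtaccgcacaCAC
The Zfp960 finger lies at chr17:17087503-17087565 on the plus strand and has 39.7% GC. That of Zfp931 lies at chr2:178068217-178068279 on the minus strand with 38.1% GC, and that of Zfp956 at chr6:47963687-47963749 on the plus strand with 50.8% GC.

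The transcripts of the 52 genes were poor in GC. Taking the longest transcript annotated as protein-coding for each gene (the longest of any kind for Zfp939, which has none with a coding sequence), the median GC content was 38.6% (range 34.4% to 54.5%), against 49.0% for all genes of the table and 46.4% for the 302 genes Zfp1 to Zfp899. Of the members, 41 were under 42% and 5 over 45%, and only 5.95% of all genes were at or below the members' median. Length set the members apart much less: their median was 2763 nt (range 1271 to 6618) against 2527 for all genes and 3534 for the other Zfp genes. The genes sat in clusters, with 13 on chromosome 17 (10 of them between 21.6 and 22.9 Mb), 10 on chromosome 4 (145.7 to 147.8 Mb), 8 on chromosome 7 and 7 on chromosome 2 (6 of them between 175.5 and 178.1 Mb). The longest coding sequence of each gene was translated, which for 7 members (Zfp931, Zfp932, Zfp934, Zfp941, Zfp945, Zfp952 and Zfp965) lies in another transcript than the one that gave GC content and length. These translations, for 51 members, were 298 to 794 residues long, with a median of 503, and 50 held at least 1 finger match, 3 to 21 with a median of 11.

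Many members could not be told apart by a read of 50 bases. For 31 of the 52, at least 10% of all 50-base stretches of the transcript occurred in a transcript of another gene, and for 10 at least 50% did. Another gene means another annotated gene entry, which for Zfp935 was mainly a second entry of the same symbol. Zfp966 (chr2:175918283-175931100) and Zfp967 (chr2:176521004-176533821) had identical counts in every library. They are 2 members in each count of members tested but 1 measurement. In the fits below that remove GC content and length their values differ, because their annotated transcripts do. That of Zfp966 has 37.3% GC and 2939 nt, and that of Zfp967 has 40.3% and 1458 nt. For Zfp960 (chr17:17064103-17089631) the share was 84.5%, mostly with its neighbour Zfp97, and for Zfp965 (chr2:175470025-175480553) it was 100%. How reads with several matches were counted is not given in the sources used here, so values of such genes may belong to the group of copies rather than to 1 gene.

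Promoters, 250 bases before to 50 after the start, were taken from RefSeq (GRCm38.p6) and could be matched for 47 of the 52 members, not for Zfp960. The letters GCGTG, the core to which the aryl hydrocarbon receptor and its partner bind, searched on both strands, were in 25.5% of the members' promoters (12 of 47), 32.5% of 27025 genes' promoters and 41.9% of those of 246 other Zfp genes. The letters CCAAT, again on both strands, were in 74.5% of the members' promoters (35 of 47), against 37.9% of all and 43.9% of the other Zfp genes. The promoters of 3 members whose levels are followed below are printed 5′ to 3′ on the strand of the gene, with CCAAT or its reverse complement in capitals for Zfp966 and Zfp984 and GCGTG in capitals for Zfp965. They lie at chr2:175931051-175931350 (minus strand), chr4:147809739-147810038 (minus strand) and chr2:175469775-175470074 (plus strand).
Zfp966: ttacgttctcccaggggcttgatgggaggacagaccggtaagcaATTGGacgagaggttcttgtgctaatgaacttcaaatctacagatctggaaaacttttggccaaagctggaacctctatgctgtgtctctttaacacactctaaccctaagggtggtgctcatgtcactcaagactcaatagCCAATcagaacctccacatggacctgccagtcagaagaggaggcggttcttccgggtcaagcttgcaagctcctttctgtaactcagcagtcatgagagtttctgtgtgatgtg
Zfp984: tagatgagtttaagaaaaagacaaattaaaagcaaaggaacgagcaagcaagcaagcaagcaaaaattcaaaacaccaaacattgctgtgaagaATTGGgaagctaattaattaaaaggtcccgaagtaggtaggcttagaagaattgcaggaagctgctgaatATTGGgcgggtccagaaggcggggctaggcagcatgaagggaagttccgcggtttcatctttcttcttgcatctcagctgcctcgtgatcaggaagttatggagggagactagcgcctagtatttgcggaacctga
Zfp965: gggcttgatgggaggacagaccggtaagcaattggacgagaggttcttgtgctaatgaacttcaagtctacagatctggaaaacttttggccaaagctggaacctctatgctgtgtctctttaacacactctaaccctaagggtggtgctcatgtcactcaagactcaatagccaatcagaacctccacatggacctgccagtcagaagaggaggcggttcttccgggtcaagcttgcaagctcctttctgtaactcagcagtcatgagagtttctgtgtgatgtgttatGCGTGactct
The Zfp965 window also holds CCAAT or its reverse complement 2 times, left in lower case. The promoters of Zfp966 and Zfp967 were identical over all 300 bases. A match of letters is a description of the window and not a measured site.

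Library totals ran from 11873417 to 28789382 counts (median 19231739), and levels are given as CPM, which is counts scaled to a library total of 1e+06. The Ahr gene itself read 2.00 to 9.23 CPM in the 18 Ahr-null libraries (median 5.05) and 4.68 to 30.8 CPM in the 54 others (median 11.6). The ranges overlapped, and a count over the whole gene does not resolve a deleted exon. Sex-linked genes went against the labelled sex in 8 libraries and Myl4, the atrial myosin light chain, against the labelled chamber in 13, which makes 17 libraries by either. Of these 17, 12 carried library numbers from 49 to 72, of which each group has 1. Values are therefore given below also without these 17 libraries and for libraries 1 to 48 alone where they differ.

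The members were transcripts of low to moderate abundance. Averaged over the 72 libraries, 5 members were over 30 CPM, 27 between 5 and 30, 14 between 1 and 5, and 6 under 1, with a median of 6.49 CPM. Zfp970 was the highest at 265 CPM (range 174 to 457), followed by Zfp966 and Zfp967 at 251 (141 to 421), Zfp971 at 74.5 and Zfp991 at 33.7. Zfp984 averaged 20.0 CPM (3.55 to 47.4), Zfp933 19.1, Zfp945 18.8, Zfp992 17.6, Zfp943 16.9, Zfp960 16.5 (4.60 to 42.4) and Zfp965 13.4. Per kilobase of transcript Zfp970 was at 169 CPM per kb and Zfp971 at 52.7, while the shared counts of Zfp967 and Zfp966 gave 172 and 85.5, which differ by transcript length alone. The lowest was Zfp957 with 0.056 CPM, and its translated coding sequence held no finger match.

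In the comparison that brought the set forward, high-dose against naïve female ventricle, Zfp960 read 34.0, 38.0 and 26.6 CPM in the 3 naïve libraries and 6.41, 8.90 and 5.05 CPM in the 3 high-dose libraries. The groups were far apart, with a log2 fold change of -2.11 (SE 0.18). Its neighbour Zfp97, which is no member, read 35.3, 38.8 and 27.5 CPM in the same naïve libraries and 5.93, 9.26 and 4.90 in the high-dose ones, close to Zfp960 in each library. Zfp943 read 29.4, 26.6 and 23.8 CPM against 11.6, 14.6 and 7.45 (log2 -1.10), and Zfp994 read 9.99, 11.6 and 8.76 CPM against 2.72, 4.78 and 2.07 (log2 -1.52). Neither of these genes overlapped between the groups. The remaining values of this comparison are summarised by count.

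Of the 49 members that passed the filter on low counts there (Zfp936, Zfp940 and Zfp957 did not), 17 were called lower and 0 higher, where a call means an edgeR quasi-likelihood p that was under 0.05 once adjusted over all genes (Benjamini-Hochberg), and 11.4% of all genes tested were called lower. Nothing is read from that count, since it is the pattern the set was put forward for. The log2 fold changes of the other called members were -1.53 (Zfp979), -1.30 (Zfp930), -1.25 (Zfp934), -1.20 (Zfp942), -1.20 (Zfp982), -1.05 (Zfp931), -0.76 (Zfp965) and -0.70 (Zfp991), with Zfp935, Zfp966, Zfp967, Zfp975, Zfp985 and Zfp992 making up the rest. Just inside the threshold was Zfp985 (log2 -1.42, adjusted p = 0.046), and just outside were Zfp933 (-0.48, adjusted p = 0.0627) and Zfp959 (-0.77, adjusted p = 0.0708) by the same test. The abundant members Zfp970 and Zfp971 were not called: Zfp970 gave 267, 277 and 265 CPM in naïve and 299, 298 and 195 CPM in high-dose libraries, and Zfp971 gave 96.8, 95.7 and 82.1 against 82.2, 81.0 and 49.6. The last high-dose library given, library 66, was the lowest of its group for each member given here with its 3 high-dose values.

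Over the 49 members the median log2 fold change was -0.52 and 44 were below 0, against a median of 0.01 over all genes tested and -0.32 over the other Zfp genes. In 27 members all 3 high-dose libraries were below all 3 naïve ones, where 25.1% of all genes were. When genes were ranked by transcript GC content and cut into 10 equal bins, 40 of the 49 members fell in the lowest bin, whose median over all genes was also negative at -0.50, while the highest bin had a median of 0.41. With a smooth function of GC content and length removed from the counts before the fit, the members' median was -0.01, 4 were called lower (Zfp930, Zfp943, Zfp960 and Zfp994), beside 5.08% of all genes, and 2 higher (Zfp938 and Zfp970), beside 7.40%.

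**Figure D1:**
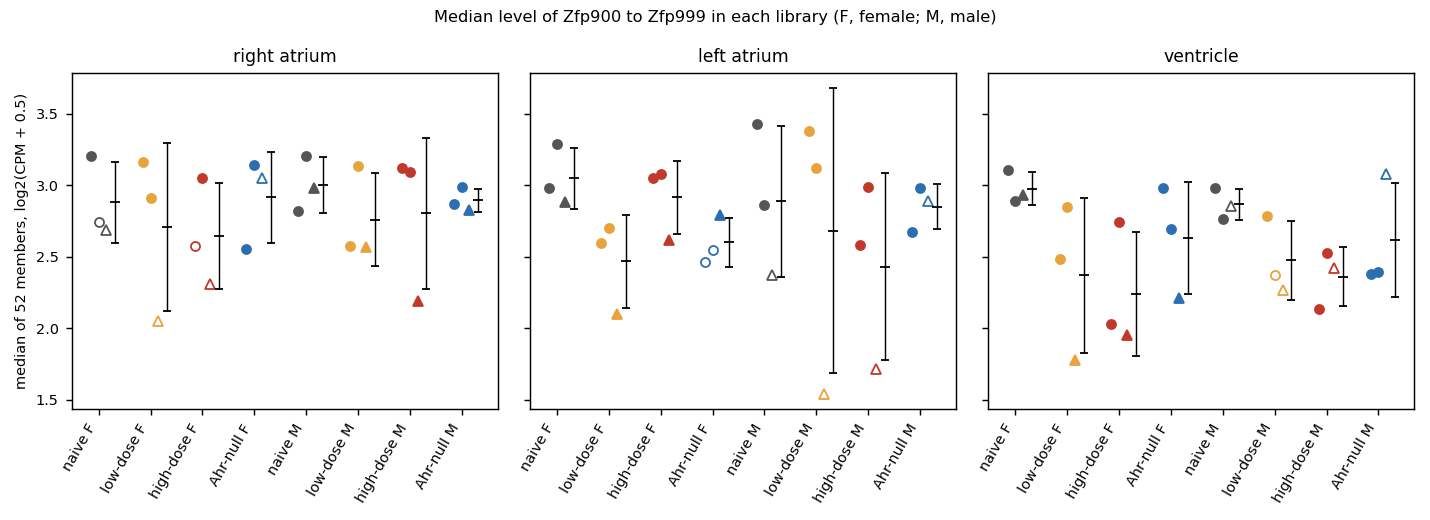
Median over the 52 members of log2(CPM + 0.5) in each library (y axis) by group and sex in the 3 chambers, with circles for libraries 1 to 48, triangles for libraries 49 to 72, open symbols for the 17 libraries whose sex genes or Myl4 go against the label, and bars for the mean ± SD of 3 libraries. In female ventricle the naïve libraries sit between 2.89 and 3.11 and the high-dose libraries between 1.95 and 2.74, and low-dose libraries 49 to 72 are the lowest of their group in all 6 groups.

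Other measures of the same libraries differed between these groups as well. The count-weighted GC content of the libraries was 50.34% to 51.06% in high-dose and 49.47% to 49.61% in naïve female ventricle, and counts on transcripts under 1000 nt made up 8.04% to 8.51% against 7.02% to 7.40%. The summed level of cardiomyocyte marker genes was 64254 to 81496 CPM against 45500 to 53782, with 4 of 6 markers higher and 1 lower without overlap. That of ventricular markers was 16719 to 18435 CPM against 11833 to 14032, with 3 of 4 higher and 1 lower. Without overlap, 2 of 6 atrial, 2 of 5 endothelial and 2 of 5 fibroblast markers were lower, 1 fibroblast and 1 macrophage marker higher, and 2 of 4 smooth muscle markers higher, while the sums of these lists overlapped between the groups. The summed level of the 52 members was 575 to 935 CPM against 1080 to 1189. The part of these differences in the fall of the members was not tested beyond the GC and length fits given here.

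The same dose in male ventricle gave fold changes of the same sign for many members, none of which was called. Zfp960 read 32.5, 20.8 and 14.7 CPM in naïve male ventricle and 6.39, 10.7 and 6.55 CPM after the high dose. The groups did not overlap, and the log2 fold change was -1.53 (SE 0.41, adjusted p = 0.525 by edgeR). Zfp984, at chr4:147753974-147812229, read 38.3, 27.7 and 18.9 CPM against 8.61, 13.0 and 15.7 (log2 -1.22, SE 0.35), and Zfp965 read 23.6, 22.3 and 13.3 CPM against 8.74, 8.70 and 7.60 (log2 -1.25, SE 0.33). Both were lower in each high-dose library than in any naïve library. Over the 49 members tested in male ventricle the median was -0.59 and 11 were lower at an unadjusted p under 0.05, beside 6.26% of all genes. With only libraries that matched their labels, which here are also those of numbers 1 to 48 (2 of each group), 10 members were called lower, beside 8.81% of all genes, and Zfp975 higher, beside 7.13%.

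After the low dose, Zfp960 read 17.3, 7.31 and 6.41 CPM in male ventricle, and 1 of these libraries was above the lowest naïve one. Zfp965 read 11.4, 9.22 and 6.11 CPM there and Zfp984 read 19.8, 17.5 and 12.4, so that Zfp965 stayed below all naïve libraries and Zfp984 did not. At an unadjusted p under 0.05, 13 of 49 members were lower in low-dose male ventricle (8.08% of all genes) and 12 of 48 in low-dose female ventricle (7.86%). In both, 3 of 6 cardiomyocyte markers were higher and 1 lower without overlap. In low-dose females 2 of 4 ventricular, 1 of 5 macrophage and 1 of 5 T cell markers were also higher without overlap, and 1 of 5 endothelial markers was lower. In low-dose males 1 of 4 blood markers was also higher. The part of these markers in the members' values was not tested. In Ahr-null male ventricle the spread was wide: Zfp960 read 10.1, 10.3 and 31.1 CPM and Zfp984 read 8.28, 12.2 and 25.6 CPM, which overlapped the naïve libraries.

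In left atrium, Zfp984 read 42.8, 24.0 and 15.1 CPM in naïve males and 9.36, 13.0 and 6.71 CPM in high-dose males. In females it read 29.4, 47.4 and 28.4 CPM in naïve, 12.6, 25.1 and 7.17 CPM in low-dose, and 29.7, 21.7 and 16.6 CPM in high-dose mice. High-dose males and low-dose females were thus below all naïve libraries of their sex, whereas high-dose females overlapped them. Low-dose males overlapped them too, with 30.0, 22.6 and 3.55 CPM of Zfp984 and 30.4, 29.4 and 5.42 CPM of Zfp960. The difference between the sexes after the high dose was not called for Zfp984 (0.73, SE 0.45) or Zfp960 (1.21, SE 0.73; adjusted p = 0.99 for both by edgeR), and doses were not tested against each other. Zfp960 read 42.4, 19.1 and 15.1 CPM in naïve and 9.57, 13.6 and 4.89 CPM in high-dose males, also without overlap. In females it showed the same arrangement as Zfp984, with 19.4, 27.3 and 20.4 CPM in naïve females, 7.40, 13.3 and 4.60 CPM in low-dose females, and 19.5, 33.9 and 6.61 CPM in high-dose females. Among the 17 comparisons that did not choose the set, low-dose female left atrium had the most members lower at an unadjusted p under 0.05, 17 of 50, beside 8.87% of all genes.

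In right atrium, Zfp965 read 20.3, 15.8 and 11.3 CPM in naïve females and 9.97, 9.28 and 6.25 CPM in low-dose females, which did not overlap. In males it read 15.0, 22.5 and 9.00 CPM in naïve and 15.2, 15.8 and 12.6 CPM in high-dose mice, which did. Zfp984 read 29.6, 31.3 and 18.0 CPM in naïve males and 26.8, 22.3 and 13.1 CPM in high-dose males, again with overlap. The members' medians in the 6 right atrium comparisons ran from -0.33 (low-dose females, -0.40 to -0.20 with 1 library left out and highest without library 68) to -0.03 (Ahr-null males).

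Across the 17 comparisons other than the one that chose the set, with 48 to 51 members tested in each, 0 members were called by edgeR's quasi-likelihood test after adjustment. At an unadjusted p under 0.05, 0 to 17 members were lower and 0 to 1 higher per comparison, and DESeq2 called 3 in total, 1 each in low-dose female left atrium, high-dose male left atrium and low-dose female ventricle. Where the share of all genes lower at that p is given above it ran from 6.26% to 8.87%. It is not given for the other comparisons or for DESeq2. The members' median log2 fold change was below 0 in all 17, from -0.59 to -0.03, where the medians over all genes ran from -0.01 to 0.07. The sign was not firm in 4 of them, where leaving out 1 library took the median above 0: Ahr-null female right atrium (0.12 without library 7), Ahr-null male right atrium (0.07 without naïve library 2), high-dose male right atrium (0.10 without library 61) and low-dose male left atrium (0.11 without naïve library 17). With GC content and length removed the members' medians ran from -0.25 to 0.09 and were below 0 in 14. Each of these comparisons used the naïve libraries of its sex and chamber for all 3 treated groups, so the 17 are not independent.

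**Figure D2:**
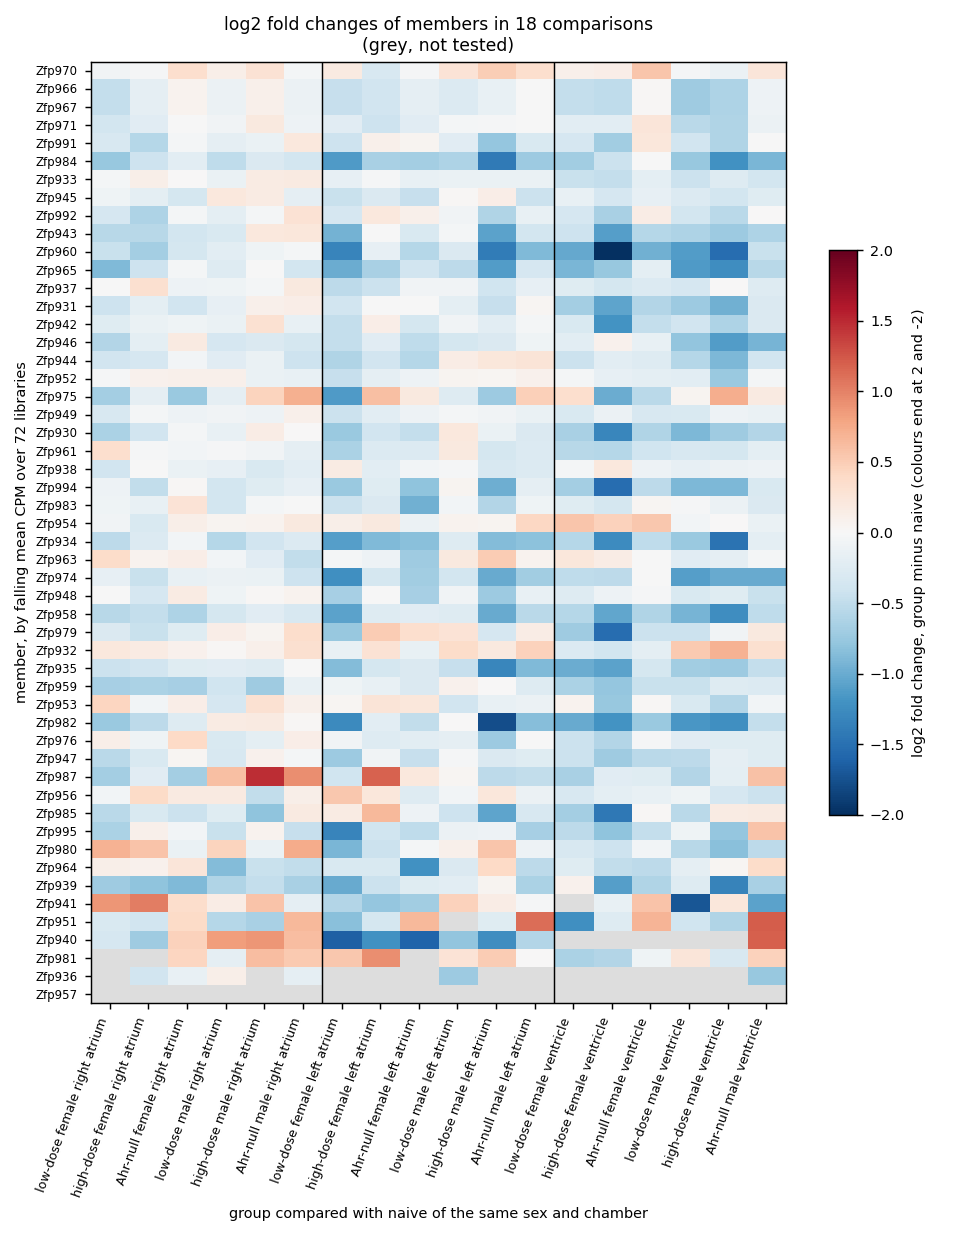
Log2 fold change against naïve (colour, ending at 2 and -2, grey where not tested) of the 52 members, ordered by falling mean CPM, in the 18 comparisons of group, sex and chamber. The column of high-dose female ventricle chose the set and is shown as a description, and members with changes of either sign occur in the other 17 columns although their median over 6 libraries was below 0 in each, a sign that leaving out 1 library turned in 4.

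The libraries of the other 5 combinations of sex and chamber were not used to choose the set, although they share the study and, for chambers of female hearts, the animals. In a fit over all 72 libraries, each group was compared with naïve as the mean of these 5. Of 51 members tested (Zfp957 did not pass the filter), 11 were called lower after the high dose and 0 higher, beside 10.9% of the 16688 genes called lower, and 10 lower and 0 higher after the low dose, beside 10.1%. In Ahr-null hearts 2 were called lower, beside 6.44%. The members' median log2 fold change was -0.26 after the high dose with 44 of 51 below 0, -0.30 after the low dose with 45 below 0, and -0.18 in Ahr-null hearts with 39 below 0. The median of all genes after the high dose was 0.05, the other Zfp genes had a median of -0.17, and the lowest of the 10 GC bins, which held 41 of the 51 members, had -0.26.

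Zfp984 was called in all 3 contrasts. Its log2 fold change was -0.81 (SE 0.19, adjusted p = 0.00156 by edgeR) after the high dose, -0.76 (SE 0.19, adjusted p = 0.00331) after the low dose and -0.58 (SE 0.19, adjusted p = 0.0357) in Ahr-null hearts. Zfp965 fell by 0.70 on the log2 scale after the high dose (SE 0.17, adjusted p = 0.00282) and by 0.76 after the low dose (SE 0.17, adjusted p = 0.00151). Zfp974 fell by 0.59 after the low dose (SE 0.17, adjusted p = 0.00996) and by as much in Ahr-null hearts (adjusted p = 0.0175), and was also called after the high dose.

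Zfp934 and Zfp935 fell by 0.79 (SE 0.19, adjusted p = 0.00296 by edgeR) and 0.62 (SE 0.16, adjusted p = 0.005) on the log2 scale after the high dose. Zfp934, at chr13:62516795-62579321, read 9.45, 5.93 and 6.11 CPM in naïve and 2.22, 2.62 and 2.97 CPM in high-dose male ventricle, without overlap, while in male right atrium naïve libraries read 8.35, 10.5 and 9.80 and high-dose ones 8.23, 8.51 and 4.43, which overlapped. Zfp960 was called after the high dose (log2 -0.78, SE 0.24, adjusted p = 0.0174) and the low dose (log2 -0.68, SE 0.24, adjusted p = 0.0417) but not in Ahr-null hearts (log2 -0.46, adjusted p = 0.225). Zfp966 and Zfp967, which share 1 set of counts and make up 2 of the 10 calls, fell by 0.41 after the low dose (SE 0.12, adjusted p = 0.0119). The remaining calls were Zfp936, Zfp946, Zfp958, Zfp982 and Zfp994 after the high dose and Zfp934, Zfp935, Zfp946 and Zfp958 after the low dose. Whether the contrasts differ from each other was not tested.

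The calls differed in how far they rested on single libraries and on the processing. Zfp984, Zfp965, Zfp934 and Zfp935 after the high dose, and Zfp965 and Zfp984 after the low dose, were called under all 8 alternatives and with each library left out in turn. Zfp960 was called after the high dose in 7 of 8 alternatives and after the low dose in 4 of 8, and with 1 library left out the latter call was lost in 15 of 72 fits (adjusted p up to 0.102 by edgeR). The Ahr-null calls were the least firm: with 1 library left out the adjusted p of Zfp984 ran from 0.0143 to 0.0962 (lost in 13 of 72 fits) and that of Zfp974 from 0.00542 to 0.0519 (lost in 3) by edgeR. With libraries 1 to 48 alone, 20 members were called lower in Ahr-null hearts, beside 19.1% of all genes, 17 after the high dose, beside 18.7%, and 14 after the low dose, beside 15.0%, and these held all 2, 11 and 10 of the calls over 72 libraries. Without the 17 libraries against their labels, 4, 10 and 8 were called lower, beside 8.91%, 11.4% and 8.57% of all genes, of which 2, 7 and 7 were among them.

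With GC content and length removed, the counts of calls were smaller. After the high dose 6 members were called lower, beside 2.97% of all genes, and all 6 were among the 11: Zfp984 (log2 -0.60, adjusted p = 0.00775 by edgeR), Zfp965 (-0.58, adjusted p = 0.0158), Zfp934 (-0.60, adjusted p = 0.0191), Zfp935 (-0.46, adjusted p = 0.0254), Zfp960 (-0.62, adjusted p = 0.0348) and Zfp936 (-1.44, adjusted p = 0.0416). Zfp936 was near the floor, with a mean of 0.41 CPM over the 72 libraries. In the fits by sex and chamber it passed the filter in only 1 of the 5 combinations after the high dose (log2 -0.38). In male left atrium its counts were 16, 17 and 10 in naïve and 0, 2 and 0 in high-dose libraries. Zfp932, named because it was the single member in the other direction, was called higher (log2 0.45, adjusted p = 0.0457). After the low dose 2 were called lower, Zfp965 (log2 -0.64, adjusted p = 0.0107) and Zfp984 (-0.54, adjusted p = 0.0221), beside 2.38% of all genes. In Ahr-null hearts 0 were called by edgeR, beside 1.22%. At an unadjusted p under 0.05 there were 8, beside 15.3% of all genes, and 5 of the 8 were lower, beside 10.0%. The members' medians moved to -0.11, -0.12 and -0.06 for the high dose, the low dose and Ahr-null.

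**Figure D3:**
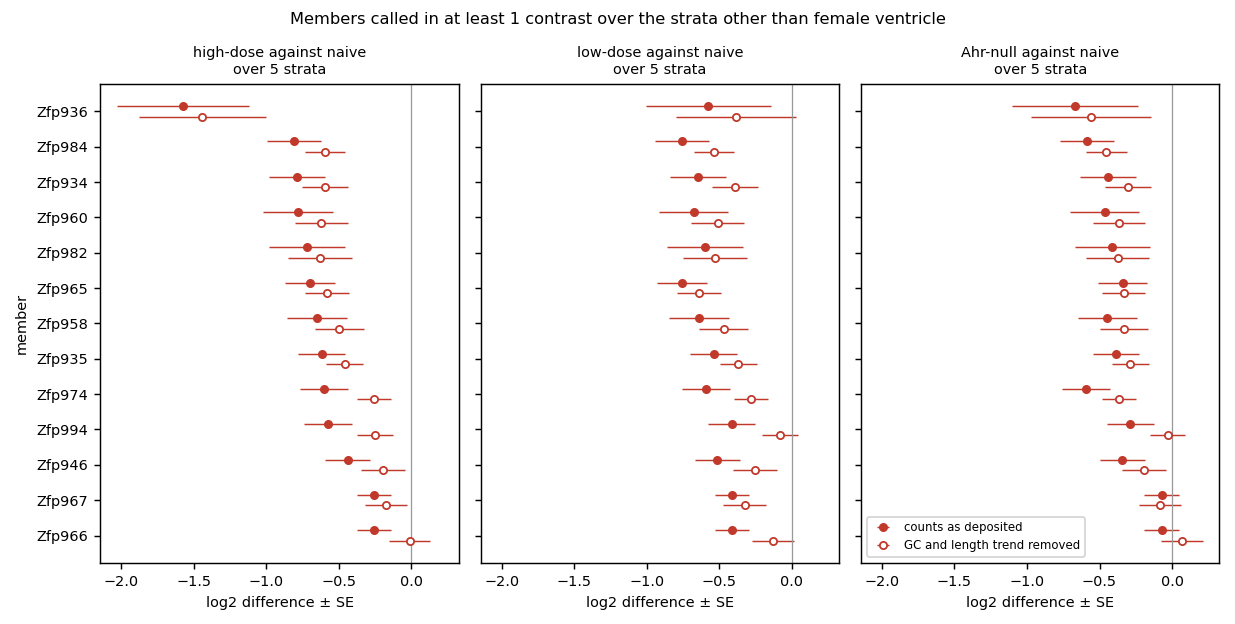
Log2 difference from naïve ± SE over the 5 combinations of sex and chamber other than female ventricle (x axis) for the 13 members called in at least 1 of the 3 contrasts, with filled points for counts as deposited and open points with GC content and length removed. Zfp984 and Zfp965 stayed called after both doses with GC content and length removed, and in Ahr-null hearts Zfp984 went from -0.58 to -0.45 (SE 0.14), no longer called.

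The members did not move evenly from 1 combination of sex and chamber to the next. After the low dose 24 of 47 members had a fold change below 0 in all 5 combinations, after the high dose 15 of 48, and in Ahr-null hearts 14 of 49, beside 18.8%, 15.6% and 14.7% of all genes. In all 5, 0, 1 and 1 members were above 0, beside 18.4%, 18.8% and 9.97% of all genes. The combinations of a sex and chamber share no naïve libraries, but chambers come from the same hearts. By cluster, after the high dose all 10 members at 21 to 23 Mb of chromosome 17 were below 0 (median -0.26), as were 8 of 10 on chromosome 4, 5 of 6 in the cluster on chromosome 2, 6 of 8 on chromosome 7 and 4 of 5 on chromosome 8, where 45.0% of all genes were below 0. With GC content and length removed, 6 of 10 were below 0 in the chromosome 17 cluster (median -0.11) and 5 of 10 on chromosome 4 (median 0.07). On chromosomes 2, 7 and 8 there were 5 of 6, 6 of 8 and 3 of 5. The share of all genes below 0 is not given for that fit. After the high dose, members with few shared 50-base stretches (under 10%) gave 2 calls among 20 tested, beside 10.9% of all genes called lower. With GC content and length removed they gave 0, beside 2.97%. Members with more gave 9 among 31, and 6 lower and 1 higher with GC content and length removed. The 7 calls under the GC and length fit were thus all in this second set, in which Zfp935 stands mainly through the second entry of its own symbol. Whether the 2 sets differ was not tested.

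Proteins that work with KRAB zinc fingers were taken as a list of 24 genes. Over the 5 combinations, where 10.9%, 10.1% and 6.44% of all genes were called lower after the high dose, after the low dose and in Ahr-null hearts, 6 of the 24 were called lower after the high dose: Atrx (log2 -0.49), which deposits the histone H3.3 with its partner Daxx, Morc3 (-0.47) and Resf1 (-0.54), which act in silencing of retroelements, Atf7ip (-0.55), which stabilises SETDB1, the remodeller Smarcad1 (-0.40) and the heterochromatin protein Cbx5 (-0.32). The same 6 were called lower after the low dose, with Resf1 at -0.75, Smarcad1 at -0.45, Atrx at -0.43, Atf7ip at -0.43, Morc3 at -0.36 and Cbx5 at -0.27. Atf7ip (-0.59), Morc3 (-0.42) and Atrx (-0.39) were called lower in Ahr-null hearts. With GC content and length removed edgeR called 0 of the 24 in each of the 3 contrasts, with 3 lower and 1 higher at an unadjusted p under 0.05 after the high dose (10.2% and 8.91% of all genes), 3 lower after the low dose (10.1%) and 5 lower in Ahr-null hearts (10.0%). Part of the folds remained in that fit: Morc3 was at -0.28, Atf7ip at -0.30 and Resf1 at -0.16 after the high dose, Resf1 at -0.44 after the low dose, and Atf7ip at -0.37 and Morc3 at -0.28 in Ahr-null hearts. Others kept little: Atrx was at -0.02 and Smarcad1 at -0.09 after the high dose, and Atrx at -0.03 in Ahr-null hearts. After the low dose Morc3 was at -0.18, Atf7ip at -0.17 and Smarcad1 at -0.17. Between chambers, where 16.3% of all genes were higher and 13.6% lower in right atrium and 12.0% higher in left atrium than in ventricle, the scaffold Trim28 (log2 0.15) and the remodeller Chd3 (0.35) were called higher and the histone-binding Rbbp7 (-0.19) lower in right atrium than in ventricle, and the deacetylase Hdac1 (0.23) higher in left atrium than in ventricle. The fit with GC content and length removed turned Cbx5 to 0.07 and 0.11 after the high and the low dose, Atrx to 0.04 after the low dose and Trim28 to -0.01 between right atrium and ventricle, and library totals brought Rbbp7 to 0.00. With 1 library left out the Hdac1 call was lost in 51 of 72 fits, that of Chd3 in 28 and that of Rbbp7 in 2. Between right atrium and ventricle that fit called Rbbp7 (-0.29), Daxx (-0.22), Chd4 (-0.20), Atrx (-0.17) and Hdac2 (-0.15) lower, 5 of 24 beside 27.8% of all genes, and Chd3 (0.23) higher, and between left atrium and ventricle Rbbp7 (-0.24) lower.

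Across genes, fold change went with transcript GC content. In high-dose female ventricle Spearman's rho between the 2 was 0.42 over the members, 0.65 over the other Zfp genes and 0.52 over all genes, where genes are not independent replicates. Over the other 17 comparisons of single groups rho ran from -0.28 to 0.38 over the members, below 0 in 5, and from 0.11 to 0.54 over all genes. In high-dose male ventricle the values were 0.23, 0.66 and 0.53, and in low-dose female ventricle 0.38, 0.67 and 0.48. Over the 5 other combinations rho was 0.15, 0.59 and 0.44 after the high dose, 0.17, 0.66 and 0.47 after the low dose, and -0.03, 0.45 and 0.38 in Ahr-null hearts. Over the members, 41 of which were under 42% GC, rho was smaller than over all genes in these contrasts and in 16 of the 17 comparisons, the exception being Ahr-null female right atrium (0.38 against 0.20), and this difference was not tested. For length, rho over the members was 0.05 in high-dose female ventricle and 0.20 after the high dose over the other 5, against -0.22 and -0.41 over all genes. With GC content and length removed it was 0.09 and 0.41 over the members, against -0.02 and -0.06 over all genes. Over the other 5 it went from 0.13 to 0.33 over the members after the low dose and from 0.06 to 0.29 in Ahr-null hearts. That fit thus took out the length trend of all genes but left a stronger one among the members.

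**Figure D4:**
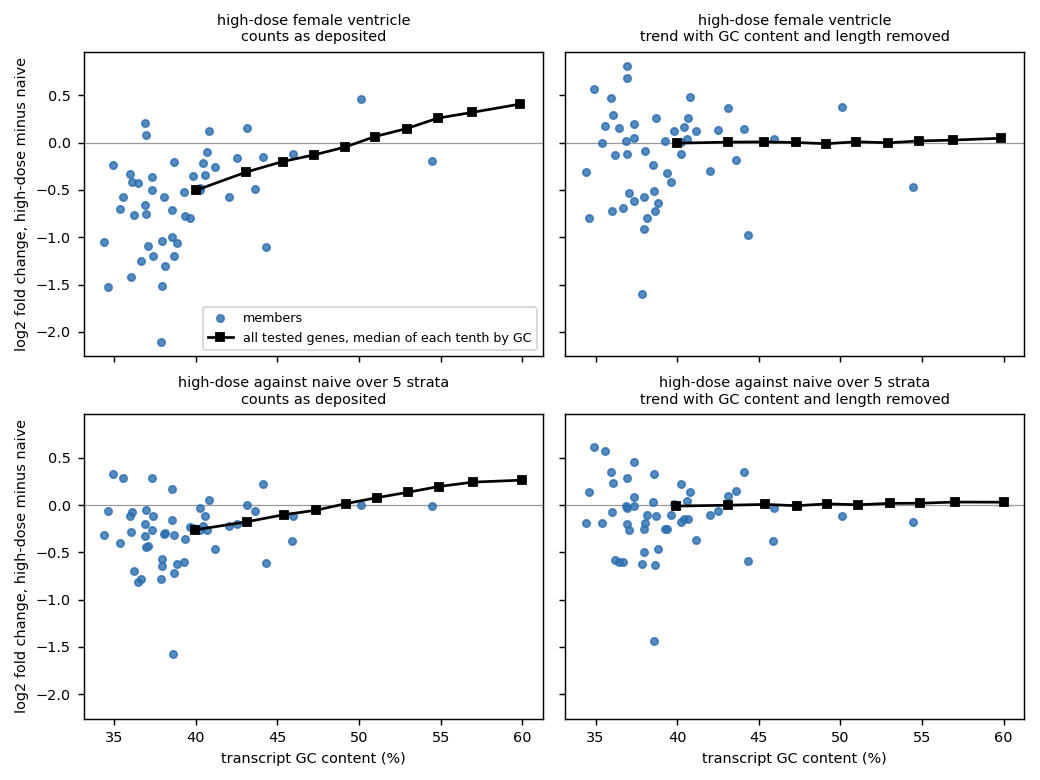
Log2 fold change against transcript GC content (percent) for the members (points) and the median of all genes in 10 bins of GC content (line), for high-dose female ventricle and for the high dose over the other 5 combinations, with counts as deposited and with GC content and length removed. In counts as deposited most members lie in the lowest bin, whose medians were -0.50 and -0.26, and the highest bins were at 0.41 and 0.26.

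The same relation was seen from library to library. Over the 24 libraries of each chamber, the members' median log2(CPM + 0.5) was set against the count-weighted GC content of all other genes. Pearson's r was -0.78 in right atrium, -0.85 in left atrium and -0.93 in ventricle (Spearman's rho -0.75, -0.84 and -0.96), with 3 relations computed. The ventricle includes the libraries that chose the set, and both measures come from the same counts, so these values are a description. Without the 2 libraries farthest in GC content r was -0.68, -0.77 and -0.93, and with group means removed it was -0.80, -0.84 and -0.93. It was -0.78, -0.89 and -0.91 within libraries 1 to 48 and -0.85, -0.90 and -0.95 within libraries 49 to 72.

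The library GC content was above that of all naïve libraries of the same sex and chamber in both sexes of high-dose and low-dose ventricle, in all 3 treated groups of female left atrium, and in high-dose male left atrium and high-dose female right atrium. In male ventricle it was 50.34% to 50.76% after the high dose and 49.25% to 49.79% in naïve libraries, and no marker list differed there in its sum without overlap. Of single markers there, 2 of 6 cardiomyocyte and 1 of 4 ventricular ones were lower and 1 of 5 macrophage ones was higher without overlap. The members' median was below all naïve libraries in high-dose ventricle of both sexes (male 2.14 to 2.53 against 2.77 to 2.98) and in low-dose and Ahr-null female left atrium.

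Levels were also compared between chambers over all groups. Zfp983, at chr17:21650572-21664966, averaged 8.50 ± 2.57 CPM in right atrium, 7.38 ± 3.14 in left atrium and 4.38 ± 1.57 in ventricle (SD, n = 24 each). The lowest, median and highest libraries were 4.10, 9.11 and 12.4 CPM in right atrium, 1.46, 7.16 and 13.8 in left atrium, and 1.73, 4.01 and 8.50 in ventricle. The ranges overlapped, but the median ventricle library was below the lowest right atrium library. In the fit over all 72 libraries Zfp983 was higher in right atrium than in ventricle by 0.76 on the log2 scale (SE 0.14, adjusted p = 5.1e-05 by edgeR) and in left atrium by 0.57 (adjusted p = 0.00357), and both calls held under all 8 alternatives and with each library left out in turn.

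Zfp987, at chr4:146097312-146126624, ran the other way, with 2.37 ± 1.14 CPM in right atrium, 2.29 ± 1.51 in left atrium and 3.29 ± 1.74 in ventricle. It was lower in right atrium (log2 -0.62, adjusted p = 0.0202 by edgeR) and left atrium (log2 -0.66, adjusted p = 0.0212) than in ventricle. Zfp987 shares 93.1% of its 50-base stretches with other transcripts. Zfp971 (73.0 ± 14.4 CPM in right atrium and 78.3 ± 18.6 in ventricle) and Zfp970 (261 ± 57.0 and 274 ± 55.4) were also called lower in right atrium, by 0.28 and 0.26 on the log2 scale (adjusted p = 0.0212 and 0.0363), as was Zfp981 at under 1 CPM. Zfp934 was called higher (log2 0.39, adjusted p = 0.0484). With 1 library left out the call of Zfp934 was lost in 39 of 72 fits, that of Zfp970 in 19 and that of Zfp987 in right atrium in 1.

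Between right atrium and ventricle 2 members were thus called higher, beside 16.3% of all genes, and 4 lower, beside 13.6%. Between left atrium and ventricle 1 was higher, beside 12.0%, and 1 lower, beside 7.39%. Without the 17 libraries against their labels, 5 were higher, beside 24.9%, and 10 lower, beside 21.9%, in right atrium, and 5 were higher, beside 23.0%, and 7 lower, beside 20.6%, in left atrium. With libraries 1 to 48 alone, 9 were higher, beside 26.4%, and 8 lower, beside 20.3%, in right atrium, and 4 were higher, beside 22.7%, and 6 lower, beside 18.7%, in left atrium. With GC content and length removed, 1 was higher (Zfp983), beside 12.7%, and 8 lower, beside 27.8%, in right atrium, 4 of them shared with the 6 calls as deposited and Zfp934 and Zfp970 not among them. The 8 held Zfp966 and not Zfp967, although both have the same counts. In left atrium that fit called 1 higher, beside 10.3%, and 3 lower, beside 21.3%. Scaling by library totals in place of TMM factors raised the median of all genes by 0.23 in right atrium and 0.18 in left atrium against ventricle, and under it 12 members were called in right atrium, all higher, beside 33.7% of all genes, so that the 4 lower calls were lost. Between the atria 0 members were called by edgeR, 1 was lower at an unadjusted p under 0.05, and DESeq2 called 0. Spearman's rho between GC content and the difference of right atrium from ventricle was 0.51 over the members and 0.02 over all genes.

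**Figure D5:**
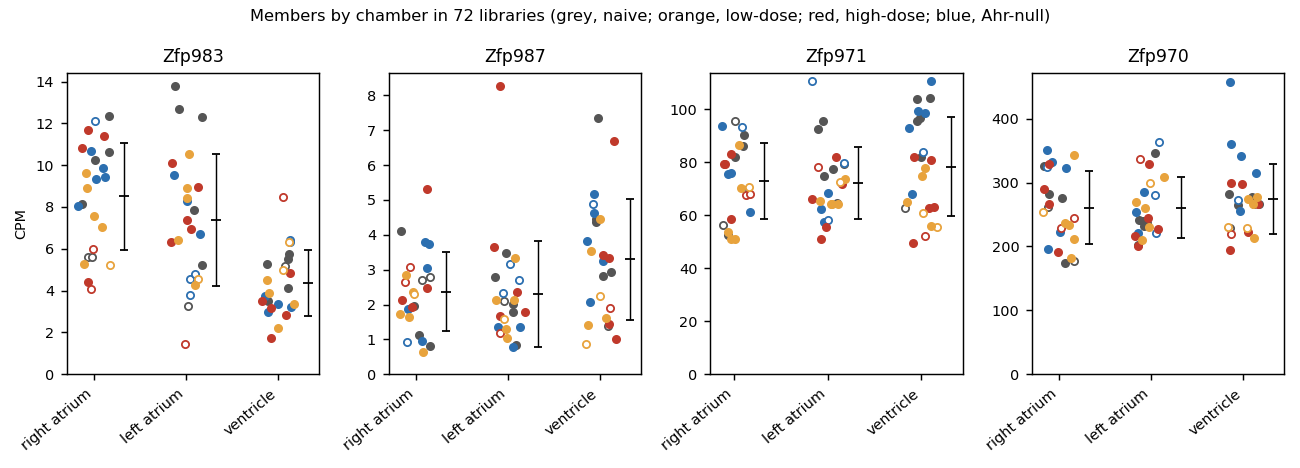
CPM of Zfp983, Zfp987, Zfp971 and Zfp970 in the 72 libraries by chamber, with colours for the 4 groups, open symbols for libraries whose sex genes or Myl4 go against the label, and bars for the mean ± SD of 24 libraries. Zfp983 averaged 8.50, 7.38 and 4.38 CPM in right atrium, left atrium and ventricle, and Zfp987 2.37, 2.29 and 3.29 CPM.

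Sex made no called difference among the members. Over all groups and chambers 0 were called between females and males by edgeR, 1 was higher in females at an unadjusted p under 0.05, and DESeq2 called 0. The difference between the sexes in the response to the high dose was also tested in each chamber, and 0 members were called by either tool. At an unadjusted p under 0.05 there were 1 of 51 in right atrium, 4 of 51 in left atrium and 2 of 50 in ventricle, beside 1.77%, 2.79% and 4.53% of all genes. For Zfp960 in ventricle the female response was lower than the male one by 0.60 on the log2 scale (SE 0.47). This value includes the libraries that chose the set and is given as a description only.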

How the data were processed

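Libraries were made with a poly-A kit that does not mark strand and read for 50 cycles. Per the paper's methods the authors used TopHat with mm10 as the genome, and Bioconductor tools to count reads on coding regions. The deposited values are raw counts per gene (Entrez identifier). Symbols came from RefSeq, transcript GC content, length and coding sequences from GENCODE M21 (GRCm38).

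Groups came from the labels. Genes were filtered (filterByExpr, minimum count 10, minimum total 15), scaled by TMM and tested with the quasi-likelihood method of edgeR 4.0.16 (R 4.3.3), p-values adjusted over all genes (Benjamini-Hochberg). Each group was compared with naïve within sex and chamber (3 against 3), and in 1 fit over 72 libraries. GC content and length were removed by a natural spline of 5 degrees of freedom entered as an offset. DESeq2 1.42.0, other filters and scalings, and left-out libraries were alternatives. The code was tested on simulated data. Replicates differed by more than sampling noise.

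The members and lists were chosen with earlier results of these data known. Genes named are Zfp960, the 12 highest members, the 12 of smallest p where the set was chosen, up to 4 per direction elsewhere, and called corepressors. The study describes the libraries of a group as biological triplicates.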

Additional observations from a re-analysis of the deposited data

Results flagged for a closer look

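The 4 results here are differences between groups in which all 3 libraries of one group lay above every naïve library of their sex and chamber. All 3 of the other lay below every naïve library of theirs. They came from a search of all tested members in each treated group, between the sexes in each chamber and between the chambers in each sex. The share of all genes that meet the same rule was not computed, so their number is not read as a result about the members.

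Zfp985, a member that averaged 1.93 CPM over the 72 libraries, gave 3 of them after the high dose. In female left atrium it read 1.70, 1.89 and 1.86 CPM in naïve and 2.68, 4.01 and 1.96 CPM in high-dose libraries, and in male left atrium 2.78, 1.60 and 2.51 CPM in naïve and 1.59, 0.894 and 0.789 CPM in high-dose libraries. The log2 fold changes were 0.64 and -1.05, a difference of 1.7. In the model with a term for sex and dose the difference was 1.67 (SE 0.68, adjusted p = 0.99 by edgeR), which was not called. In high-dose females the fold change was -0.31 in right atrium and 0.64 in left atrium, a difference of -0.95, and 0.64 in left atrium against -1.42 in ventricle, a difference of 2.07. The difference between chambers was not tested in either case, and the ventricle value comes from the comparison that chose the set.

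Zfp987 had a log2 fold change of 1.48 in right atrium and -0.52 in left atrium of high-dose males, a difference of 2. This difference was not tested, and 93.1% of the 50-base stretches of Zfp987 occur in other transcripts.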

How the results depend on the processing

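No paired analysis was possible because the library numbers run from 1 to 72 and no number is shared between groups. A term for the series of numbers (1 to 48 or 49 to 72), which is not a pairing, gave 12 calls after the high dose, 13 after the low dose and 2 in Ahr-null hearts over the 5 combinations, against 11, 10 and 2. Shares of all genes are not given beside the counts of this section, and they move with the setting too. In Ahr-null hearts over the 5 combinations 6.44% of all genes were called lower as reported and 19.1% with libraries 1 to 48. No change of a count here is therefore read as a result about the members. The counts of called members in high-dose female ventricle, 17 as reported, were 5 with the 4 groups of the stratum in 1 fit, 5 with GC content removed, 6 with GC content and length removed, 8 with libraries 1 to 48, 1 at an adjusted p under 0.0001, and 9 to 22 with a library left out (9 without naïve library 35, 11 without 36 or 54, 22 without high-dose 44). Against 0 as reported, DESeq2 called 1 in low-dose female left atrium, high-dose male left atrium and low-dose female ventricle each, libraries 1 to 48 gave 4 in Ahr-null female left atrium, 11 in high-dose male ventricle and 2 in low-dose male ventricle, and matching labels gave 11 in high-dose male ventricle. Leaving out a library gave 0 to 7 in Ahr-null female ventricle (7 without library 39) and 0 to 1 in low-dose female ventricle (1 without 48). Over the 5 combinations, Ahr-null calls (2) were 1 with no filter, 0 by library totals, 0 with GC content and length removed, 20 with libraries 1 to 48, 4 with matching labels, and 0 to 3 with a library left out (0 without naïve 3 or 17 or Ahr-null 37, and 1 without naïve 1, 2, 20 or 33 or Ahr-null 5, 7, 21, 23, 38 or 55). High-dose calls (11) were 7 with GC content and length removed, 17 with libraries 1 to 48 and 9 to 14 with one left out, and low-dose calls (10) were 2 and 7 to 14. Right atrium against ventricle (6) gave 12 by library totals, 17 with libraries 1 to 48, 15 with matching labels and 4 to 10 (10 without 4 or 65). Left atrium against ventricle (2) gave 6, 10 and 12, 4 with GC content and length removed, and 2 to 5 (5 without 57 or 69, 4 without 65). The interaction in ventricle (0) gave 1 with libraries 1 to 48, 3 with matching labels and 0 to 3 (3 without 65). Reversed were Zfp991 in high-dose female ventricle with GC content removed (0.065), Cbx5 (0.0732 after the high dose, 0.1054 after the low dose), Atrx (0.0424 after the low dose) and Trim28 (-0.0148 between right atrium and ventricle) with GC content and length removed, and Rbbp7 between those chambers by library totals (0.001). The cause was not tested. High-dose female right atrium with matching labels was not fitted, with 1 library per group left.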
